A study of Mus musculus with 4 samples.

Results

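Nefl, Nefm, Stmn2, Tubb3, Tac1, Gnao1, Rasgrf1, Sncg and Bex1 are genes best known from nerve cells, and their RNA was followed here in single cells of mouse skin tumours. They were found by symbol in the feature list of all 4 libraries, 9 of 31053 mouse genes. The 9 were picked by name with earlier results of these same libraries known, so their levels in tumour cells and their differences between the groups are a description and carry no test. Every mouse, controls included, carried Lgr5CreER, p53fl/fl and Rosa26-YFP, alleles with which Cre made in Lgr5-expressing cells, once released by tamoxifen, deletes p53 and marks the cell and its progeny with yellow fluorescent protein (YFP). Tamoxifen was given as 4 injections of 2.5 mg at postnatal day 28, and tumours were detected 7 to 9 weeks later. The 2 NP137 libraries came from mice given NP137, an antibody to netrin-1, at 10 mg/kg every 2 days from week 4 after tamoxifen until death, and the 2 control libraries from mice labelled control, whose own treatment the sources used here do not give. All live cells of dissociated tumours were sorted, YFP-negative ones included, and run on 10x Genomics droplets. Whether each library is an animal of its own is not stated, so the spread between libraries may be partly technical.

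Neurofilaments are the intermediate filaments of axons and are built from light, medium and heavy subunits. Around them microtubules carry cargo along the axon, and stathmin-family proteins set how fast those microtubules turn over. Most neuronal genes are held off outside the nervous system by the repressor REST, and several of them are known to be made by tumours of other tissues. Nefl encodes the light and Nefm the medium neurofilament subunit, Stmn2 a stathmin of growing axons, and Tubb3 the class III beta-tubulin of neurons. Tac1 encodes the precursor of substance P and neurokinin A, Gnao1 the alpha subunit of the G protein Go, and Rasgrf1 a calcium-responsive exchange factor that loads Ras with GTP. Sncg encodes gamma-synuclein, a synuclein of peripheral neurons, and Bex1 a small adaptor protein first found in brain.

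In GENCODE M21, on the mm10 build that the submitters' processing notes name, Stmn2 lies at chr3:8509360-8561606, Tac1 at chr6:7554879-7565834, Gnao1 at chr8:93809966-93969388, Tubb3 at chr8:123411424-123422015 and Rasgrf1 at chr9:89909908-90026977, all on the plus strand. Sncg lies at chr14:34370274-34374789 and Bex1 at chrX:136213972-136215513, both on the minus strand. Nefm, at chr14:68082590-68124846 on the minus strand, spans Nefl, at chr14:68083863-68089095 on the plus strand. The sources used here do not say whether the counting used strand, so without it reads in that overlap cannot be told apart. Tubb3 overlaps Gm20388 on its own strand, and Bex1 overlaps Tceal7 and has the close paralog Bex2, so their counts are uncertain in the same way.

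RefSeq promoters of build GRCm38.p6 were at hand for 6 of the 9 genes, Bex1, Tac1, Tubb3, Sncg, Gnao1 and Rasgrf1, and not for Nefl, Nefm and Stmn2. The 5 shown belong to genes with clear tumour-cell RNA, Tac1, Gnao1 and Rasgrf1 from the set that was higher in control tumour cells and Tubb3 and Sncg from the set that was higher in NP137 tumour cells. Each run covers 300 bases around the annotated RefSeq start on the gene's own strand, Tac1 at chr6:7554811-7555110, plus strand, Gnao1 at chr8:93810588-93810887, plus strand, Rasgrf1 at chr9:89909525-89909824, plus strand, Tubb3 at chr8:123411303-123411602, plus strand and Sncg at chr14:34374620-34374919, minus strand. The Gnao1 run lies inside the gene as placed by GENCODE above, and the Rasgrf1 run ends before it, so neither holds the GENCODE start. Capitals mark TGACG or its reverse complement, the core of the cAMP response element.
Tac1: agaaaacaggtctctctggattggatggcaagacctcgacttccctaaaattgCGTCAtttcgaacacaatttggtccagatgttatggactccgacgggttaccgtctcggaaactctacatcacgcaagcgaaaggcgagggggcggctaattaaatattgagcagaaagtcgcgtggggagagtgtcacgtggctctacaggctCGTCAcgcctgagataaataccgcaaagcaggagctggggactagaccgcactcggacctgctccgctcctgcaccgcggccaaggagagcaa
Gnao1: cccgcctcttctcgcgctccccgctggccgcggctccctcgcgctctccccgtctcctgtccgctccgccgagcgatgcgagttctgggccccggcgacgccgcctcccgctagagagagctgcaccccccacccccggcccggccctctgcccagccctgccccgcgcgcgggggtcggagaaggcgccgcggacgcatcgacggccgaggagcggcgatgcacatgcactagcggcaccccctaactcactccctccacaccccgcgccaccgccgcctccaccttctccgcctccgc
Rasgrf1: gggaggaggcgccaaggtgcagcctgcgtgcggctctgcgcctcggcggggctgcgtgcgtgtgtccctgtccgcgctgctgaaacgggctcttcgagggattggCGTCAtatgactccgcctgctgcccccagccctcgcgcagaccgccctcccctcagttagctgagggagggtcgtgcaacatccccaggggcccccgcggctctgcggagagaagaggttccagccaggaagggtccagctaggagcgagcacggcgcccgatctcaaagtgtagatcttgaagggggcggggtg
Tubb3: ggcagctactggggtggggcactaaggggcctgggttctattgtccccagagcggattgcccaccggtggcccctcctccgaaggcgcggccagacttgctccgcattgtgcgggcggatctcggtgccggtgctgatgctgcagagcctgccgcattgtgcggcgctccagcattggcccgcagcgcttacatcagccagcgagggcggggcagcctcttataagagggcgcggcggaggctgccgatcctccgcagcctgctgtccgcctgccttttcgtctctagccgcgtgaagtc
Sncg: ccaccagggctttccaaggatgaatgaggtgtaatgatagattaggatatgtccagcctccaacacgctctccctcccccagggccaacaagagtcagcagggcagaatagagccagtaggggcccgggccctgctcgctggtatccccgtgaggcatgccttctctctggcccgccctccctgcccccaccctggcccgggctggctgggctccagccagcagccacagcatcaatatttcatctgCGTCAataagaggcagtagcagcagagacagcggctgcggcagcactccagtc
TGACG occurred 2 times in the Tac1 run and 1 time each in those of Rasgrf1, Sncg and Bex1, and in neither Tubb3 nor Gnao1, on a background of 20.8% of 32851 promoters. The GC box GGGCGG occurred in all but the Gnao1 run, against 35.7% of all promoters. On either strand, TATAAA (13.6% of all promoters), the Snail and Zeb E-box CACCTG (20.2%) and TTCAGCACC, the left part of the REST site (0.371%), were in none of the 6. The Gnao1 run was 76.3% G or C and that of Tac1 54.0%, beside a median of 52.7% over all promoters. These letters thus did not separate the genes that were higher in control tumour cells from the pair that was higher in NP137 tumour cells.

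Tumour cells were taken as the cells of 5 clusters, of 30, in which 72.0% to 95.5% of cells had a UMI of the YFP transgene, against at most 36.8% in any other cluster. A UMI, or unique molecular identifier, counts 1 captured RNA molecule. The 9 genes were kept out of the variable genes used for clustering. This gave 2993 and 885 tumour cells in NP137 1 and NP137 2, and 4728 and 1147 in control 1 and control 2, of 44501 cells used in all. Levels are in CPM, the UMIs of the gene scaled to a fixed total of UMIs of the class in a library, with no length term, so they compare cells for 1 gene and not genes with each other. Median UMIs per tumour cell were 8576 and 18490 in NP137 1 and 2, and 8236 and 27460 in control 1 and 2. Library totals ran from 69517664 to 149021188 UMIs, and any pair of libraries shared 24 to 86 cell barcodes. Intervals given below are exact 95% intervals of the count and cover counting error only.

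NP137 1 was unlike the other libraries in that it held 439 tumour cells with Xist and no Y-linked UMI and 1106 with Y-linked UMIs and no Xist, so it holds cells of both sexes. A further 63 tumour cells of NP137 1 had UMIs of both kinds. In tumour cells NP137 2 and control 1 had Xist without Y-linked RNA and control 2 the reverse, but for 2 or 3 cells each with both. Each tumour cluster came mostly from 1 library, from 86.0% to 99.3% of its cells, so the kind of tumour cell and the library cannot be told apart for most cells. Defining markers of neurons were low in tumour cells, though higher in both control libraries than in both NP137 libraries. The 11 read, Snap25, Syt1, Syp, Rbfox3, Elavl3 and Elavl4 among them, summed to 3.70 and 1.93 CPM in NP137 1 and 2. They summed to 15.7 and 8.81 CPM in control 1 and 2. In macrophage or monocyte-like cells the same sum was 1.48 and 7.77 CPM in the NP137 libraries, and 8.10 and 10.2 CPM in the control libraries. Schwann markers summed to 17.6 and 35.3 CPM in NP137 tumour cells, against 23.6 and 4.08 CPM in control tumour cells, and to 8589 CPM in the Schwann-marked cells of NP137 1. Of 9 Merkel cell and neuroendocrine markers, 2 and 4 had a UMI in tumour cells of NP137 1 and 2, and 4 and 5 in those of control 1 and 2. Neurod1 was at 0 in all 4 libraries and Chga was at 0 in all but NP137 2. The list summed to 6.17 and 11.9 CPM in NP137 and to 43.4 and 136 CPM in control tumour cells. Most of the control 1 sum was Piezo2, and control 2 added Krt20; their part in the results was not tested.

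Within the tumour cells the genes fell into 2 sets that moved in opposite directions. Nefl, Nefm, Stmn2, Tac1, Gnao1 and Rasgrf1 were lower in both NP137 libraries than in both control libraries. Tubb3 and Sncg were higher in both NP137 libraries, and Bex1 was close to absent from tumour cells of either group. Across the 14001 genes tested, edgeR's quasi-likelihood test called 0.00714% at an adjusted p of 0.05, either direction, and 0 of the 9. At an unadjusted p of 0.05 it counted 2 of the 9 as higher and 6 as lower, where 10.6% of all genes were higher and 12.6% lower. DESeq2 called 2 of 9 higher and 5 of 9 lower at an adjusted p of 0.05, on a background of 6.81% and 8.57%. Group values that do not overlap were found in 17.8% of all genes as higher and 40.2% as lower, and in 2 and 7 of the 9. Nothing is read from these counts, since the genes were chosen with the contrast known. The file names of NP137 1 and control 1 carry the same date and those of the other libraries another date each. What the date marks is not stated, and its part in these differences was not tested.

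**Figure D1:**
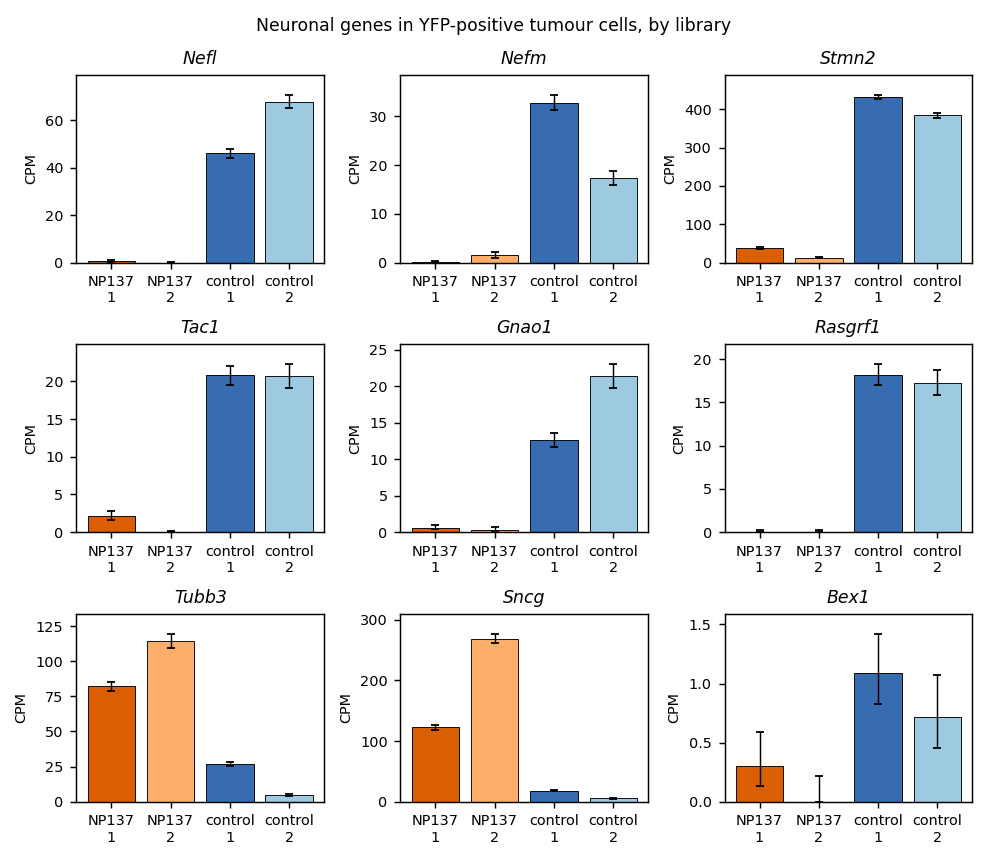
Levels (CPM, linear axes from 0) of the 9 genes in YFP-positive tumour cells, 1 bar a library, NP137 in orange and control in blue, with exact 95% intervals of the count. Stmn2 stands at 37.7 and 13.04 CPM in NP137 and at 432 and 385 CPM in control, and Sncg at 123 and 269 CPM in NP137 and at 18.1 and 5.76 CPM in control.

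The axonal cytoskeleton genes were split between the sets. Nefl was at 0.560 and 0 CPM in NP137 1 and NP137 2, against 46.1 and 67.9 CPM in control 1 and control 2, which is 15 and 0 UMIs against 2320 and 2183 UMIs. Nefm was at 0.149 and 1.52 CPM in the NP137 libraries, against 32.8 and 17.3 CPM in the control libraries. All 26 Nefm UMIs of NP137 2 came from 3 cells, 10 of them from 1 cell. Both neurofilament subunits were therefore carried by control tumour cells, with no overlap between the groups. The fitted log2 fold change, NP137 over control, was -7.26 (SE 1.09) for Nefl and -4.69 (SE 1.15) for Nefm, beside a median of -0.034 over all genes tested. With 0 UMIs in 1 library, that of Nefl depends on the prior count and is no bound.

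Stmn2 gave the most molecules of the 9 in control tumour cells, 21778 and 12362 UMIs in control 1 and control 2. Its level was 37.7 CPM (95% interval 35.5 to 40.1) in NP137 1 and 13.04 CPM (11.4 to 14.9) in NP137 2, against 432 CPM (427 to 438) in control 1 and 385 CPM (378 to 392) in control 2. The fitted log2 fold change was -3.79 (SE 0.55). The NP137 cells were not without Stmn2: it was carried by few of them, since the top 5% of cells held 83.1% of its UMIs in NP137 1 and 93.3% in NP137 2, against 39.7% in control 1 and 26.6% in control 2. Tubb3, the other microtubule gene, ran the opposite way, at 82.0 and 114 CPM in NP137 1 and 2, against 26.9 and 4.95 CPM in control 1 and 2. Its fitted log2 fold change was 2.85 (SE 0.88), and control 1 lay nearer to the NP137 libraries than control 2 did.

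The signalling genes were all in the set of the neurofilaments. Tac1 was at 2.17 and 0 CPM in NP137 1 and 2, against 20.8 and 20.7 CPM in control 1 and 2, with a fitted log2 fold change of -3.99 (SE 1.43). Of its 58 UMIs in NP137 1, 20 came from 1 cell. Gnao1 was at 0.635 and 0.351 CPM in NP137 1 and 2, against 12.6 and 21.4 CPM in control 1 and 2, with a fitted log2 fold change of -4.82 (SE 0.54). No control tumour cell held more than 8 of its UMIs, and the top 5% of cells held 52.5% of them in control 1 and 32.5% in control 2. Rasgrf1 had 2 and 0 UMIs in NP137 1 and 2, against 916 and 554 UMIs in control 1 and 2, or 18.2 and 17.2 CPM. Its fitted log2 fold change of -8.30 (SE 0.80) rests on those 2 UMIs and is no bound.

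Sncg was the gene of the second set with the larger difference. It was at 123 CPM (119 to 127) in NP137 1 and 269 CPM (261 to 277) in NP137 2, against 18.1 CPM (16.9 to 19.3) in control 1 and 5.76 CPM (4.96 to 6.65) in control 2, and its fitted log2 fold change was 4.29 (SE 0.81). Bex1 had 8 and 0 UMIs in NP137 1 and 2, against 55 and 23 UMIs in control 1 and 2, or 0.299, 0, 1.09 and 0.716 CPM. Of the 55 in control 1, 29 came from the 174 cells of hybrid state described below. Outside the tumour clusters, Bex1 stood in keratinocyte-like cells at 3.90 and 0.593 CPM in NP137 1 and 2, against 3.32 and 6.03 CPM in control 1 and 2, though on 1 UMI in NP137 2. Outside the hybrid cells of control 1 no tumour state with at least 50 cells was above 0.73 CPM, and over all tumour cells the name of a neuronal gene of these cells goes against its data. In control 2, 10 of those keratinocyte-like cells held 85.2% of its UMIs.

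To ask how common the cells are, each cell was thinned to 2000 UMIs so that depth does not set the share of cells with a UMI, which left out 229 and 38 shallower tumour cells of NP137 1 and 2, and 467 and 16 of control 1 and 2. Stmn2 was then seen in 4.85% and 2.48% of NP137 tumour cells, against 39.2% and 40.1% of control tumour cells. The share in macrophage or monocyte-like cells, a class not known to make Stmn2, was 0.154% and 0% in NP137 1 and 2, against 6.49% and 2.39% in control 1 and 2. Each NP137 tumour share of Stmn2 was above the macrophage share of its own library, and the macrophage share of control 1 was above both of them. Nefl was seen in 0.109% and 0% of NP137 tumour cells, against 5.37% and 8.31% of control ones, where the macrophage shares were 0% and 0% in NP137 and 0.805% and 1.37% in control libraries. Sncg was seen in 17.7% and 37.2% of NP137 tumour cells, against 2.72% and 1.15% of control ones, and Tubb3 in 12.1% and 16.2%, against 3.94% and 0.619%. Before thinning the Stmn2 shares were 10.5% and 6.67% in NP137 1 and 2, and 60.5% and 73.4% in control 1 and 2. For Nefm, Tac1, Gnao1 and Rasgrf1 the thinned shares lay between 0% and 0.253% in the NP137 libraries and between 2.32% and 5.57% in the control libraries, and no macrophage share of these 4 was above 0.705%.

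**Figure D2:**
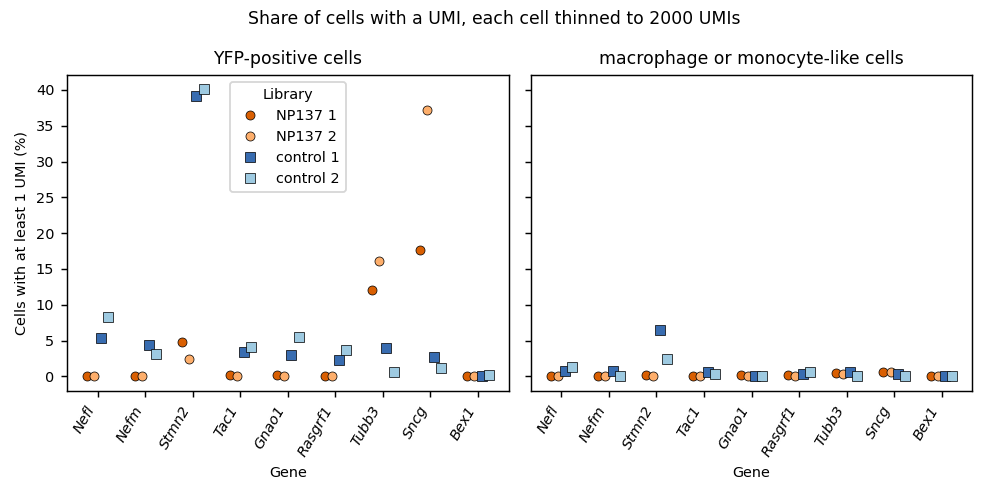
Share of cells (%) with at least 1 UMI of each gene after thinning to 2000 UMIs a cell, in tumour cells on the left and macrophage or monocyte-like cells on the right, circles for NP137 and squares for control, 1 symbol a library. Stmn2 stands near 40% in both control libraries and under 5% in both NP137 libraries, and in macrophage or monocyte-like cells it stands at 6.49% and 2.39% in the control libraries.

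At least 1 of Nefl, Nefm, Stmn2, Tac1, Gnao1 and Rasgrf1 was seen in 5.28% and 2.60% of thinned tumour cells of NP137 1 and 2, against 47.7% and 53.3% in control 1 and 2. At least 2 were seen in 0.0724% and 0% of NP137 cells, against 8.80% and 10.7% of control cells. This grouping was made after the values were seen. Tubb3 or Sncg was seen in 27.9% and 46.9% of NP137 cells, against 6.50% and 1.77% of control cells. The neurofilament subunits were found in the same cells more often than the product of their shares: 39 cells of control 1 had both Nefl and Nefm where 10.2 would follow from independence, and 9 cells of control 2 where 2.91 would. Levels of both, and of Rasgrf1, differ between the main tumour clusters of control 1, described below, and the Nefl and Nefm genes overlap. The part of either in the shared cells was not tested. Nefl and Rasgrf1 met in 20 cells of control 1, where 5.32 would follow, and in 4 cells of control 2, where 3.41 would. Stmn2 and Tac1 did not meet in this way, with 61 cells in control 1 where 56.8 would follow and 12 cells in control 2 where 18.5 would. Within NP137 1, Stmn2 met Tubb3 in 7 cells where 16.2 would follow and Sncg in 13 cells where 23.7 would. In NP137 2 Stmn2 met Tubb3 in 3 cells where 3.40 would follow and Sncg in 8 where 7.81 would. In control 1 it met Tubb3 in 86 cells where 65.8 would follow and Sncg in 46 where 45.4 would, and in control 2 Tubb3 in 2 where 2.81 would and Sncg in 8 where 5.22 would.

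The state of each tumour cell was read from 16 mesenchymal and 16 epithelial genes, none of them among the 9, as the log2 ratio of their UMIs, each sum plus 1: above 1 mesenchymal, below -1 epithelial, hybrid between. NP137 1 had 110 mesenchymal, 134 hybrid and 2749 epithelial tumour cells, NP137 2 had 10, 22 and 853, control 1 had 4196, 174 and 358, and control 2 had 1099, 29 and 19. State and group go together almost wholly, so only NP137 1 and control 1 hold at least 50 cells of both states. In NP137 1, 143 cells lay within 0.5 of a border, and in control 1, 204 cells.

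Inside control 1 the pooled levels of the 2 sets followed state. Stmn2 was at 475 CPM in mesenchymal and 70.4 CPM in epithelial tumour cells of control 1, and Nefl was at 50.1 CPM in the mesenchymal and 2.09 CPM in the epithelial ones. Nefm stood at 36.5 and 1.52 CPM in these cells, Tac1 at 23.3 and 0.381 CPM, Gnao1 at 14.2 and 0.381 CPM and Rasgrf1 at 20.2 and 0.761 CPM, mesenchymal before epithelial. Sncg, with 13.3 CPM in mesenchymal and 55.9 CPM in epithelial cells, and Tubb3, with 25.5 CPM in mesenchymal and 36.7 CPM in epithelial cells, went the opposite way. Tubb3 differed more between the main tumour clusters of control 1, described below, than between these states. The epithelial control cells had less Sncg than the epithelial cells of NP137 1 and 2, at 116 and 269 CPM, and less Tubb3, at 84.5 and 115 CPM in NP137. The Sncg of NP137 1 was uneven, at 137 CPM in epithelial cells with Y-linked UMIs alone. In those with Xist alone it was at 60.1 CPM (52.3 to 68.75), near the level in control 1 (49.7 to 62.7). Stmn2 was at 38.4 CPM in macrophage or monocyte-like cells of control 1, and its part in the 70.4 CPM of epithelial control cells was not tested.

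The 110 mesenchymal tumour cells of NP137 1 had higher levels of all 6 genes of the control set than the epithelial cells of that library. Tac1 was at 23.5 CPM there (15 UMIs), against 1.55 CPM in epithelial cells of the same library, and close to the 23.3 and 21.0 CPM of mesenchymal cells in control 1 and 2. Gnao1 was at 12.6 CPM (8 UMIs), against 0.238 CPM in the epithelial cells. Stmn2 was at 110 CPM, against 35.6 CPM in the epithelial cells, under the 475 and 388.5 CPM of mesenchymal control cells. Nefl had 4, Nefm 3 and Rasgrf1 1 UMI in these cells, or 6.28, 4.71 and 1.57 CPM, against 0.437, 0.0397 and 0 CPM in the epithelial cells. Of the epithelial set, Tubb3 was at 15.7 CPM, against 84.5 CPM in the epithelial cells, while Sncg was at 89.4 CPM, against 116 CPM. With state read from Epcam and Vim UMIs instead, Sncg was higher in the mesenchymal cells of NP137 1, at 150 CPM, against 119.5 CPM in the epithelial ones, and with a hybrid range of 2 Rasgrf1 was at 0 CPM in both. The differences within NP137 1 rest on few cells of 1 library and have no replicate.

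Hybrid cells did not lie midway for every gene. In the 134 hybrid cells of NP137 1, Sncg was at 337 CPM, above the epithelial and mesenchymal cells of that library. By Vim, at 5597 CPM, and Epcam, at 21.1 CPM, these hybrid cells were close to the mesenchymal ones. Vim and Epcam were at 5797 and 17.3 CPM in mesenchymal cells of NP137 1, and at 1283 and 962 CPM in epithelial ones. In the 174 hybrid cells of control 1, Nefl was at 130 CPM and Bex1 at 46.0 CPM, both above the other states of control 1. These cells were shallow, with a median of 762.5 UMIs, against 8226 in mesenchymal and 12380 in epithelial cells of control 1, and a YFP UMI was seen in 35.6% of them, against 75.6% and 89.7%; the part of this was not tested. Gnao1 was at 1.59 CPM, under the 14.2 CPM of mesenchymal cells. Rest RNA, the transcript of the neuronal repressor, lay between 85.7 and 126 CPM in every state and library with at least 50 cells, and at 88.3 and 86.3 CPM in all NP137 tumour cells, against 102 and 89.9 CPM in control ones.

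**Figure D3:**
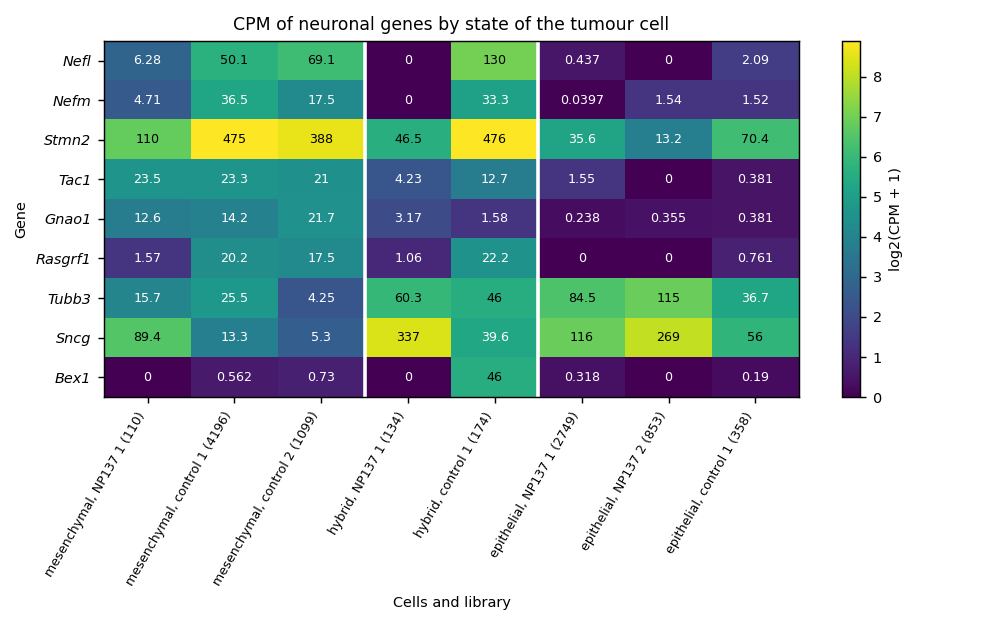
Levels of the 9 genes by state of the tumour cell and library, for sets of at least 50 cells (cell numbers in brackets), coloured by log2(CPM + 1) with the CPM printed in each field. Nefl, Nefm, Stmn2, Tac1, Gnao1 and Rasgrf1 are higher in the mesenchymal than in the epithelial columns of the same library, and Tubb3 and Sncg lower, with the state lists used here.

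The mesenchymal tumour cells of the controls were not alike. Control 1 held 1412 cells of a cluster led by Krt8, Acan and Cdkn2a and 2942 cells of a cluster led by Crabp1, H19 and Aqp1, and control 2 held 1069 cells of a cluster led by Mgp, Clu and Crisp1. In the Krt8 cluster of control 1, Nefl was at 96.6 CPM, Nefm at 61.4 CPM and Rasgrf1 at 38.1 CPM, while in the Crabp1 cluster of the same library Nefl was at 17.1 CPM, Nefm at 17.8 CPM and Rasgrf1 at 6.77 CPM. Tac1 and Gnao1 ran the opposite way, at 3.20 and 8.10 CPM in the Krt8 cluster, against 38.4 and 18.6 CPM in the Crabp1 cluster. Tubb3 was at 46.6 CPM in the Krt8 cluster and 9.90 CPM in the Crabp1 cluster, and Stmn2 was shared, at 555 and 417 CPM. The Mgp cluster of control 2 carried genes of both kinds, with Nefl at 70.4 CPM, Tac1 at 17.1 CPM, Gnao1 at 20.4 CPM, Rasgrf1 at 18 CPM and Stmn2 at 394 CPM. Within control 1 the genes thus differed in level between the clusters, with RNA of each in both. Nefl, Nefm and Rasgrf1 were higher in the Krt8 cluster, and Tac1 and Gnao1 in the Crabp1 cluster. This rests on 1 library.

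**Figure D4:**
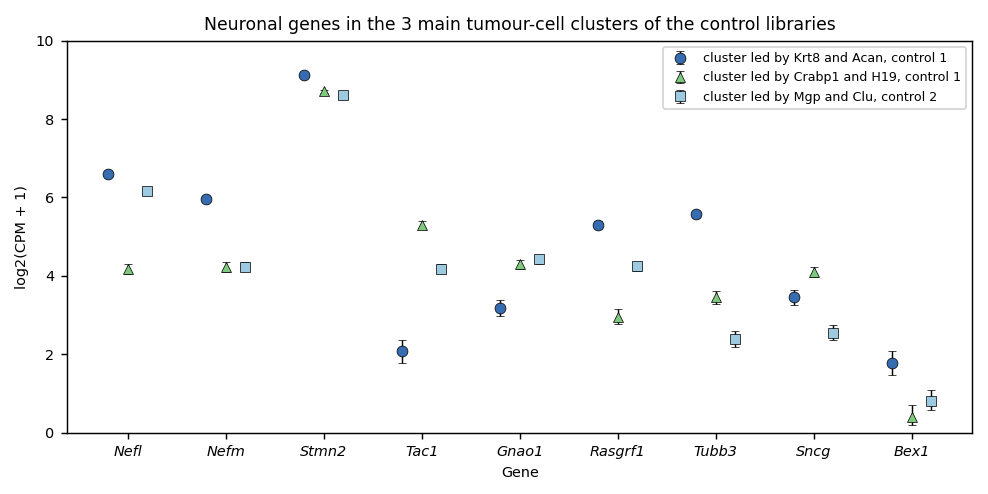
Levels as log2(CPM + 1) of the 9 genes in the 3 main tumour-cell clusters of the control libraries, circles and triangles for the clusters of control 1 and squares for that of control 2, with exact 95% intervals of the count. Nefl, Nefm and Rasgrf1 are highest in the cluster led by Krt8 and Acan, and Tac1 is highest in the cluster led by Crabp1 and H19.

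NP137 1 could be split by its sex-linked RNA. Its tumour cells with Xist alone had Stmn2 at 102 CPM and Sncg at 61.2 CPM, and those with Y-linked UMIs alone had Stmn2 at 26.6 CPM and Sncg at 147 CPM. Among epithelial cells alone the contrast was the same, with Stmn2 at 98.1 CPM and Sncg at 60.1 CPM in 420 cells with Xist and Stmn2 at 24.0 CPM and Sncg at 137 CPM in 989 cells with Y-linked UMIs. Tubb3 differed less, at 99.5 CPM in the first and 81.4 CPM in the second. Both kinds of cell had less Stmn2 and more Sncg than all tumour cells of either control library, most of which were mesenchymal. Beside epithelial cells of control 1 alone, epithelial cells with Y-linked UMIs still had less Stmn2 and more Sncg. Those with Xist had more Stmn2, at 98.1 CPM (88.0 to 109), against 70.4 CPM (63.4 to 78.0) in control 1. Their Sncg was near that of control 1, at 60.1 CPM (52.3 to 68.75), against 55.9 CPM (49.7 to 62.7). The cells with Xist and with Y-linked UMIs are parts of 1 library with no replicate. Cells without UMIs of either kind, and the 63 tumour cells with UMIs of both kinds, were left out.

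Outside tumour cells, Schwann-marked cells were few: 72 cells of 1 cluster with more Schwann than melanocyte marker genes detected, of which 52 and 1 were in NP137 1 and 2, and 8 and 11 in control 1 and 2. They held 122 UMIs of Scn7a and 84 of Mbp, genes of Schwann cells and of myelin that were among those used to choose them, in 147901 UMIs. Melanocyte markers were not absent from them, with 1 and 13 UMIs in all in NP137 1 and 2, against 0 and 4 UMIs in control 1 and 2. Of the 9 genes, Tubb3 was at 210 CPM over these cells (31 UMIs in 11 cells, 95% interval 142 to 298), and 14 of the 31 were in 1 cell. Sncg was at 108 CPM (16 UMIs in 9 cells, 61.8 to 176). Stmn2 had 3 UMIs and Nefl 1 UMI, and Nefm, Tac1, Gnao1, Rasgrf1 and Bex1 had 0 UMIs, where 3 counts, taken as the limit, are 20.3 CPM and the exact 95% upper limit is 24.9 CPM. So of the genes that were higher in control tumour cells none was seen above 3 UMIs in Schwann-marked cells at this depth. The upper limit of 24.9 CPM lies above the control tumour levels of Tac1, Gnao1 and Rasgrf1. Those were 20.8 and 20.7, 12.6 and 21.4, and 18.2 and 17.2 CPM in control 1 and 2. Absence from Schwann-marked cells can therefore not be read from these counts, and 52 of the 72 cells came from NP137 1.

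Endothelial-like cells, which line vessels, carried Stmn2 and Sncg in both groups. Stmn2 was at 195 and 100 CPM there in NP137 1 and 2, against 138 and 308 CPM in control 1 and 2, with overlap, and its macrophage level was 1.48 and 0.160 CPM in NP137 1 and 2, against 38.4 and 9.51 CPM in control 1 and 2. Sncg was at 96.9 and 70.2 CPM in NP137 and 58.7 and 79.0 CPM in control endothelial-like cells. Pericyte or smooth muscle-like cells had Sncg at 135 and 72.6 CPM in NP137 1 and 2, against 108 and 287 CPM in control 1 and 2. In NP137 2, 36 of 67 mast or basophil-like cells had an Sncg UMI (77 UMIs), against 0 of 67 in control 1, where 3 counts, taken as the limit for a count of 0, are 27.2 CPM. Rasgrf1 had 2 UMIs in those 67 cells of control 1, or 18.2 CPM. Keratinocyte-like cells had Tubb3 at 46.0 and 117 CPM in NP137 1 and 2, against 11.96 and 17.4 CPM in control 1 and 2. A YFP UMI was seen in 32.9% and 60.2% of these cells in NP137 1 and 2, against 30.2% and 17.3% in control 1 and 2, at unequal depth. Thinned to 2000 UMIs a cell the shares were 30.6% and 31.6% in NP137 1 and 2, against 19.2% and 6.49% in control 1 and 2, and their part in the Tubb3 levels was not tested.

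**Figure D5:**
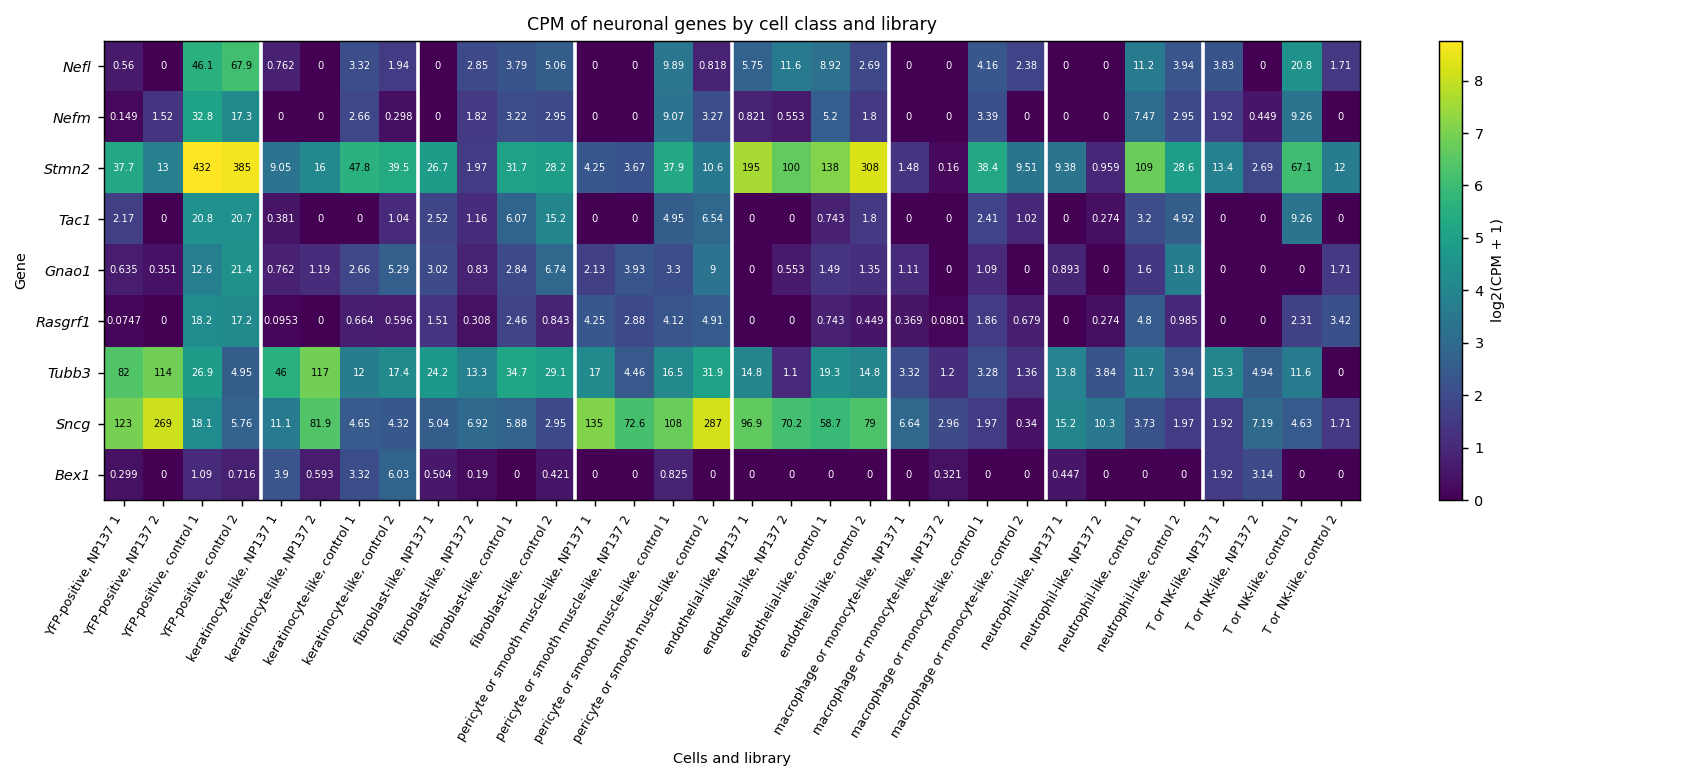
Levels of the 9 genes by cell class and library, NP137 left of control within each class, shown where every library held 50 cells or more of it, coloured by log2(CPM + 1) with the CPM printed in each field. Stmn2 is high in endothelial-like cells of all 4 libraries and Sncg in endothelial-like and pericyte or smooth muscle-like cells, while Rasgrf1 stands at 18.2 and 17.2 CPM in control tumour cells and at 4.91 CPM or less in the other classes shown.

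The same fit was made in 2 classes of cells outside the tumour clusters. In fibroblast-like cells 0 of 11187 genes were called by edgeR at an adjusted p of 0.05, and 2.74% passed at an unadjusted p of 0.05; DESeq2 called 0.0626%, none of them among the 7 of the 9 that were tested. Stmn2 was at 26.7 and 1.97 CPM there in NP137 1 and 2, against 31.7 and 28.2 CPM in control 1 and 2, a log2 fold change of -1.23 (SE 1.25, edgeR adjusted p = 0.991). Tac1 was at 2.52 and 1.16 CPM, against 6.07 and 15.2 CPM, a log2 fold change of -2.64 (SE 0.68, edgeR adjusted p = 0.991), and 10 cells held 86.1% of its UMIs in control 2. In NP137 2 the 2964 fibroblast-like cells held 120 UMIs of Nefl in 57 cells and 77 of Nefm in 45 cells. The 885 tumour cells of that library had 0 and 26. Scaled to total UMIs, Nefl was at 2.845 CPM in these fibroblast-like cells, against 0 CPM in the tumour cells. Nefm differed little, at 1.825 CPM, against 1.521 CPM. In macrophage or monocyte-like cells edgeR again called 0 genes, with 3.91% of 11274 at an unadjusted p of 0.05. Of the 4 of the 9 tested there, Stmn2 alone was among the 0.0798% of genes DESeq2 called, with an edgeR log2 fold change of -5.60 (SE 1.27, edgeR adjusted p = 0.994), and its levels there stood in the same order over the 4 libraries as those of the tumour cells.

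Other genes of the same families and processes were read from fixed lists. Of 101 other genes in 11 lists of neurofilament, growth cone, Bex, synuclein, tachykinin, G protein, Ras exchange factor, synapse, RNA-binding, neural transcription factor and REST genes, 60 had enough counts to test in tumour cells. None passed edgeR at an adjusted p of 0.05; 2 were higher and 11 lower at an unadjusted p of 0.05, and DESeq2 called 1 higher and 9 lower, where over all genes 10.6% were higher and 12.6% lower at an unadjusted p of 0.05 and DESeq2 called 6.81% and 8.57%. Their median log2 fold change was -0.56, beside -0.034 over all genes tested. Uchl1, a neuronal ubiquitin hydrolase, was at 0.523 and 0.0585 CPM in NP137 tumour cells, against 17.7 and 15.03 CPM in control ones. Cpe, of the same list and at a higher level, overlapped between the groups, at 282 and 272 CPM in NP137 and 274 and 454 CPM in control tumour cells. Dpysl3, a protein of growth cones, was at 82.1 and 5.62 CPM, against 397 and 416 CPM, and Map1b, which binds microtubules, at 104 and 91.0 CPM, against 253 and 251 CPM. Sox11, a neural transcription factor, was the 1 gene DESeq2 called higher, at 40.2 and 71.5 CPM in NP137 and 16.0 and 2.83 CPM in control tumour cells. Sox2 was at 0.822 and 0.702 CPM in NP137 1 and 2, against 0.337 and 166 CPM in control 1 and 2, so its high level was that of 1 library.

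Among intermediate filaments Nes, the nestin of neural progenitors, was at 8.93 and 7.72 CPM in NP137, against 18.4 and 29.7 CPM in control tumour cells, and Prph, the peripherin of peripheral neurons, at 1.121 and 1.053 CPM, against 3.32 and 1.21 CPM; Nefh and Ina were too low to test. Bex3, a close relative of Bex1, was at 183 and 135 CPM in NP137 and 121 and 132 CPM in control tumour cells. Of the tachykinin genes, Mme, whose product neprilysin cleaves substance P, was at 1.76 and 0.0585 CPM in NP137, against 129 and 12.98 CPM in control tumour cells, while Tacr1, the receptor of substance P, was at 0.187 and 0.0585 CPM, against 1.69 and 0.311 CPM. The ubiquitous G protein subunits Gnas, Gnai2 and Gnb1 were at 226.8 CPM or more in every library, with group values that overlapped for none of them, Gnb1 being higher and the others lower in NP137; none was called by either tool.

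By likeness of log2(CPM + 1) over 38 sums of a class in a library with at least 50 cells, the genes nearest to Nefl were Sema3a (Pearson r 0.79), Stmn2 (0.75) and Angptl7 (0.75), and those nearest to Nefm were Nefl (0.72), Tac1 (0.71) and Ank (0.70). Stmn2 was nearest to Mtmr11 (0.84), Aqp1 (0.82) and Cdh13 (0.81), and Tac1 to Scara5 (0.81), Acan (0.80) and Brinp3 (0.80). Gnao1 was nearest to Kirrel (0.78) and Rasgrf1 to Cp (0.74). Tubb3 was nearest to Map6 (0.77), a microtubule-stabilising protein, Sncg to Ankrd29 (0.76) and Bex1 to Pdzk1ip1 (0.82). The sums share libraries, and so depth, and these values only describe them.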

How the data were processed

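Single cells of 4 tumour libraries, 2 NP137 and 2 control, were measured by 10x Genomics droplets. The deposited files hold raw UMI counts per gene and barcode, with 10x software 3.0.2 named per the file headers, and mm10 and Seurat 3.1.5 named per the submitters' processing notes; neither the aligner nor strand use is stated there. A further allele that all mice carried and a few marker and list genes are not reported here. The genes and lists described here were chosen with earlier results of these data known.

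Barcodes needed 200 genes or more and a mitochondrial share of UMIs below 20%, and the highest Scrublet scores were removed as doublets at 0.8% per 1000 barcodes, 2412 and 2401 cells in NP137 1 and 2, and 1195 and 378 in control 1 and 2. Leiden clustering at resolution 1 used 2000 variable genes, reduced to 30 components, and 15 neighbours a cell (scanpy 1.11.5, leidenalg 0.10.2), and classes were named from marker lists. CPM were computed here from summed counts. Sums per library were fitted with edgeR 4.0.16 (quasi-likelihood, TMM, filterByExpr, Benjamini-Hochberg adjustment) in R 4.3.3, with DESeq2 1.42.0 as an alternative. The fit was also tested on simulated counts that spread less between libraries than the tumour-cell data and held no low-count genes. That test does not cover genes of few UMIs. With 2 libraries against 2, an exact two-sided permutation test cannot go below 0.333, so none is given for single values. Named list genes were drawn from, per list, the 3 of smallest p past the threshold or else the 3 highest by mean CPM. Levels are not given for every one of them. Alternatives covered the tool, scaling, filters, doublets, clustering, the definition of tumour cells and of state, thinning, a replicate block and each library left out. Same-numbered libraries did not deviate together, so the numbers were not taken as pairs.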

Additional observations from a re-analysis of the deposited data

Results flagged for a closer look

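Tubb3, the neuronal beta-tubulin, had fold changes of opposite sign in 2 cell classes, with no overlap between the groups in either. In tumour cells its fitted log2 fold change, NP137 over control, was 2.85, with 82.0 and 114 CPM in NP137 1 and 2, against 26.9 and 4.95 CPM in control 1 and 2. In fibroblast-like cells it was -0.76 (SE 0.36, edgeR adjusted p = 0.991), with 24.2 and 13.3 CPM in NP137 1 and 2, against 34.7 and 29.1 CPM in control 1 and 2. The difference between the classes was not tested, and Tubb3 was chosen with its values in tumour cells known.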

How the results depend on the processing

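With 2 libraries a group the number of genes called in tumour cells, 1 with edgeR, depended on the setting: it was 2154 with DESeq2, 1149 with no filter on low counts, 198 with 500 genes and 10% mitochondrial UMIs as cell limits, 189 at Leiden resolution 2, 0 with every cell that had a YFP UMI, and 0 to 315 with a library left out (315 without NP137 1, 185 without control 1, 0 without NP137 2 or control 2). The cause was not tested. In fibroblast-like cells, where the main count was 0, it was 7 with DESeq2, 103 with no filter and 0 to 51 with a library left out (51 without NP137 1), and in macrophage or monocyte-like cells 9 with DESeq2 and 84 with no filter. None of the 9 genes changed direction in tumour cells under 12 alternatives, though Tac1 moved to -2.10 with no doublets removed and Bex1 to -0.71 with every cell that had a YFP UMI. With DESeq2 the log2 fold changes that passed were -7.31 for Nefl, -4.63 for Nefm, -3.77 for Stmn2, 2.87 for Tubb3, 4.31 for Sncg, -4.80 for Gnao1 and -8.38 for Rasgrf1. With no filter those that passed were -3.81 for Stmn2, -4.85 for Gnao1 and -8.33 for Rasgrf1, with the stricter cell limits -4.74 for Gnao1 and -8.40 for Rasgrf1, and at Leiden resolution 2 -3.81 for Stmn2, -4.74 for Gnao1 and -8.38 for Rasgrf1. With a library left out the log2 fold changes ran from -13.83 to -6.47 for Nefl, -7.18 to -3.80 for Nefm, -4.72 to -3.25 for Stmn2, 2.08 to 4.63 for Tubb3, -12.38 to -3.07 for Tac1, -5.32 to -4.45 for Gnao1, -12.15 to -7.64 for Rasgrf1, 3.53 to 5.42 for Sncg and -7.88 to -1.41 for Bex1; without NP137 1, edgeR called Nefl, Stmn2, Tac1, Gnao1 and Rasgrf1, and without control 1, Tubb3, Gnao1 and Rasgrf1.

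The replicate block called 0 genes in tumour cells and reversed Tubb3 in macrophage or monocyte-like cells, to 0.019. The correlation of library 1 minus library 2 between the groups was 0.0274 over 14001 genes, and the labels do not say that a number marks a shared batch or day. Of the list genes, Prph ran from -1.40 to 0.15 with a library left out and reversed without control 1, and Sos2 ran from -0.36 to 0.35 and reversed without NP137 2 (-0.36) or control 2 (-0.018), and with every cell that had a YFP UMI (-0.00080). Without control 2, Cpe (range -0.40 to 0.22), Sox2 (-7.44 to 1.37) and Rest (-0.024 to 0.27) reversed. Reading state from Epcam and Vim UMIs left too few epithelial cells of control 1 for a value and moved 29 other levels by state; the mean of per-cell CPM moved 34 and a hybrid range of 2 moved 10. With Epcam and Vim, 8 of the 9 genes were higher in mesenchymal cells of NP137 1, Sncg among them, and with a hybrid range of 2, 5 of the 9 were. Depth limits Nefl, Tac1, Rasgrf1 and Bex1 in NP137 2, at 0 UMIs, where 3 counts are 0.175 CPM.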
